A study of Mus musculus with 6 samples.

Results

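Genes of prostanoid and leukotriene synthesis were compared in the livers of ARSB-null and control mice. The set was Hpgds and 9 genes of the same pathway (Ptgds, Ptges, Ptgs1, Ptgs2, Ptgis, Tbxas1, Alox5, Alox5ap and Ltc4s). It was chosen by the measured difference between ARSB-null and control arrays, in which Hpgds stood high, with the other genes added for their place in the pathway. The differences of these genes are therefore given as a description, and no call made on the same contrast supports them. Each gene was read by the brightest probe set, over all 6 arrays, of those annotated with that gene symbol and no other. By this rule 9 of the 10 genes were measured, of 19938 genes so measured on the array, and each of the 9 had a single such probe set. Ptgs1, the constitutive cyclooxygenase, had none and was not analysed here.

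The lysosomal sulfatase ARSB (arylsulfatase B) takes the 4-sulfate group off chondroitin 4-sulfate and dermatan sulfate. Hepatic RNA was measured in 3 homozygous ARSB-null and 3 control male mice, all C57BL/6J, 12 weeks old and untreated, with 1 array per mouse and the animals of each genotype numbered 4, 5 and 6. The null colony was bred from heterozygous mice, the loss affected the whole body, and the sources do not state whether the controls were littermates. For euthanasia the sample labels name ketamine and xylazine and the methods name carbon dioxide. The methods also name a second-generation mouse gene array, while the identifiers of the rows match the first generation.

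Eicosanoids are short-lived lipid signals made from arachidonate. Phospholipases and other lipases release arachidonate, the cyclooxygenases turn it into PGH2, and dedicated synthases turn PGH2 into PGD2, PGE2, prostacyclin or thromboxane. In the leukotriene branch, 5-lipoxygenase works with its activating protein, and leukotriene C4 synthase adds glutathione. In liver, most of these enzymes are known from the non-parenchymal cells (macrophages, endothelium, blood cells), while hepatocytes take up and inactivate their products.

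Values are log2 signals after quantile normalization, so a difference of 1 is a 2-fold difference. The array medians lay between 6.50 and 6.60. Signals of different probe sets are not comparable as levels, and there were no detection calls. Arsb averaged 7.57 ± 0.10 in ARSB-null and 10.21 ± 0.01 in control livers (SD, n = 3 each), a log2 difference of -2.64 (limma adjusted p = 0.000639), in the direction of the labels. The 8 measured hepatocyte markers averaged 13.61 to 13.74 on the ARSB-null and 13.51 to 13.63 on the control arrays and so were far above the array medians. Over all 35556 probe sets limma called 2 higher and 5 lower in ARSB-null livers at an adjusted p under 0.05, or 0.0197% of those tested, and the median difference was 0.00. With 3 arrays against 3, the number of arrays limits the precision, and an exact permutation test of a single gene cannot go below p = 0.1. The spread is that between individual mice. In bulk tissue, fewer cells of a type and less RNA per cell cannot be told apart.

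Hpgds, the hematopoietic prostaglandin D synthase, was the member with the largest difference. This glutathione-dependent enzyme converts PGH2 to PGD2, and is known from mast cells, macrophages and megakaryocytes. Its signal reached 6.45, 6.76 and 6.42 in ARSB-null livers numbered 4, 5 and 6, against 5.28, 5.75 and 5.21 in the control livers of the same numbers. Every ARSB-null value lay above every control value. The means were 6.54 ± 0.19 in ARSB-null and 5.42 ± 0.29 in control livers (SD, n = 3 each), a log2 difference of 1.13 (SE 0.17) or 2.18-fold. Within each mouse number the difference was similar, at 1.17, 1.01 and 1.20 for the numbers 4, 5 and 6. The labels do not say that mice of the same number are pairs. Here and below, differences within a number therefore only describe the values and add no support beyond the group comparison. Of the 19938 genes, 13 had a larger increase. The signal was low: 2 of the 3 controls lay near the lower quartile of their array (5.21 to 5.31 over the 6 arrays), and only 1 ARSB-null array and 0 control arrays had Hpgds at or above the array's own median. With no detection calls, the fold of so dim a signal may differ from that of the RNA.

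The other prostaglandin D synthase, Ptgds, was nearly alike in both groups. Ptgds encodes the lipocalin-type enzyme, best known from brain, which makes the same product from an unrelated protein fold. Its signal was 7.35, 7.19 and 7.24 in ARSB-null livers, against 7.23, 7.10 and 7.27 in control livers. The groups overlapped, with means of 7.26 ± 0.08 in ARSB-null and 7.20 ± 0.09 in control livers (SD, n = 3 each) and a difference of 0.06 (SE 0.10).

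The promoter windows of both PGD2 synthases are shown because Hpgds in mouse mast cells is known to depend on MITF, the transcription factor that the study followed, and that of Ptgs2 because it held the related E-box. MITF binds the hexamers CATGTG and CACGTG. The sequences are those of RefSeq on GRCm38.p6, from 250 bases before to 50 bases after the gene's start, 5′ to 3′ on the strand of the gene. Hpgds lies on the minus strand at chr6:65144681-65144980, Ptgds on the minus strand at chr2:25469700-25469999 and Ptgs2 on the plus strand at chr1:150099781-150100080. Capitals mark CATGTG in Hpgds and CACGTG in Ptgs2.
Hpgds: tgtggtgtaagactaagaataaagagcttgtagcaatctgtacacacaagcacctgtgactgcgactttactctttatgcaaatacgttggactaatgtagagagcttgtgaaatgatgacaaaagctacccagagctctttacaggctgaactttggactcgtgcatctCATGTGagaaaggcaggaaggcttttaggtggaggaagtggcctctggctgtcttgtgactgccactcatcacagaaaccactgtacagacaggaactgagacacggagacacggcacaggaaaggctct
Ptgds: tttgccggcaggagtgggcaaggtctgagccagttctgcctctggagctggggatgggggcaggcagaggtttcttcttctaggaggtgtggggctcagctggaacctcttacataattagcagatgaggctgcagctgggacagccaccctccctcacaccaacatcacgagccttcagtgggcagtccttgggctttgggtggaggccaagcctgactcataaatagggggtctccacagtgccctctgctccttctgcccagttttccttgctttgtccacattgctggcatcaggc
Ptgs2: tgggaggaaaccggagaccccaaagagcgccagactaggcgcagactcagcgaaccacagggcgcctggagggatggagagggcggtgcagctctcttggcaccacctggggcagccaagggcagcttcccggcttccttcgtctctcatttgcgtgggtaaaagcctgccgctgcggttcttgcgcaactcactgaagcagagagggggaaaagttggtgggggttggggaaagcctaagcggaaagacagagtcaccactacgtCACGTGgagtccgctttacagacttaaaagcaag

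Both strands of the windows were searched for each motif, in the 8 members that had one (those of Hpgds, Ptgds, Ptges, Ptgs1, Ptgs2, Tbxas1, Alox5 and Ltc4s). CATGTG was found in 1 of the 8, Hpgds, where it began 80 bases before the start; the share of all 32851 promoters with it was 14.2%. The Hpgds match stood inside the longer TCATGTGA, which 0.986% of promoters held. That longer form was searched after the Hpgds sequence had been read. CACGTG was found in 1 of the 8, Ptgs2, at position 17 after the start, and in 7.15% of all promoters. CAGGT was searched because the study names this sequence as its MITF consensus. It was found on the reverse strand in 3 of the 8 (Hpgds, Ptges and Ptgs2), and in 50.1% of all promoters. These matches describe letters in a window and are not evidence of binding.

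Among the cyclooxygenase and the remaining prostanoid synthases, Ptges had groups that did not overlap. Ptges encodes microsomal prostaglandin E synthase-1, the inducible enzyme for PGE2. Its signal was 6.27, 6.20 and 6.01 in ARSB-null livers, against 6.54, 6.46 and 6.45 in control livers. Every ARSB-null value was the lower one, and the means were 6.16 ± 0.13 in ARSB-null and 6.49 ± 0.05 in control livers (SD, n = 3 each). The difference was -0.32 (SE 0.11), with the control mean 1.25-fold above the ARSB-null mean. It was -0.27, -0.26 and -0.44 within the mouse numbers 4, 5 and 6, and 613 genes had a larger decrease.

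Ptgs2, the inducible cyclooxygenase, was 5.78, 5.51 and 5.61 in ARSB-null livers, against 5.66, 5.88 and 5.72 in control livers. The groups overlapped, with a difference of -0.12 (SE 0.12). Ptgis, the prostacyclin synthase of the vessel wall, was 7.66, 7.63 and 7.29 in ARSB-null livers, against 7.57, 7.45 and 6.95 in control livers. The mouse numbered 6 was the lowest in both groups, and the groups overlapped, with a mean difference of 0.20 (SE 0.19). Within each mouse number the ARSB-null value was the higher, by 0.09, 0.17 and 0.34 for the numbers 4, 5 and 6. Tbxas1, the thromboxane synthase of platelets and macrophages, averaged 6.83 ± 0.21 in ARSB-null and 6.83 ± 0.07 in control livers (SD, n = 3 each). Its values ran from 6.66 to 7.06 in ARSB-null and from 6.77 to 6.90 in control livers, so that the ARSB-null arrays enclosed the controls.

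In the leukotriene branch, the clearest difference was that of Alox5ap. Its product, the 5-lipoxygenase activating protein FLAP, is a membrane protein of myeloid cells that presents arachidonate to 5-lipoxygenase. Its signal was 6.27, 6.33 and 6.29 in ARSB-null livers, against 7.10, 7.23 and 6.67 in control livers. Every ARSB-null value was below every control value, and the ARSB-null arrays lay close together while the control numbered 6 stood apart from the other controls. The means were 6.30 ± 0.03 in ARSB-null and 7.00 ± 0.29 in control livers (SD, n = 3 each), a difference of -0.71 (SE 0.16), with the controls 1.63-fold above the ARSB-null mice. The difference was -0.83 and -0.90 for the numbers 4 and 5 but -0.38 for the number 6. All 3 controls and 0 ARSB-null arrays had Alox5ap above the array's own median, and 66 genes had a larger decrease. Without the control numbered 6 the difference was -0.87, and without the control numbered 5 it was -0.59.

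Alox5 and Ltc4s, the partners of FLAP, did not share its pattern. Alox5, the 5-lipoxygenase itself, was 6.01, 6.07 and 5.89 in ARSB-null livers, against 6.24, 5.78 and 5.81 in control livers. The groups overlapped and the difference was 0.05 (SE 0.15), with its sign turned in some settings of the fit. Ltc4s, the leukotriene C4 synthase, was 6.34, 6.09 and 6.33 in ARSB-null livers, against 6.23, 5.83 and 6.04 in control livers. The ARSB-null mouse had the higher value within each number, by 0.12, 0.26 and 0.28, but the groups overlapped and the mean difference was 0.22 (SE 0.14). FLAP, leukotriene C4 synthase and microsomal prostaglandin E synthase-1 belong to one family of membrane proteins (MAPEG), and within it the mean was higher in ARSB-null livers for Ltc4s and lower for Alox5ap and Ptges.

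**Figure D1:**
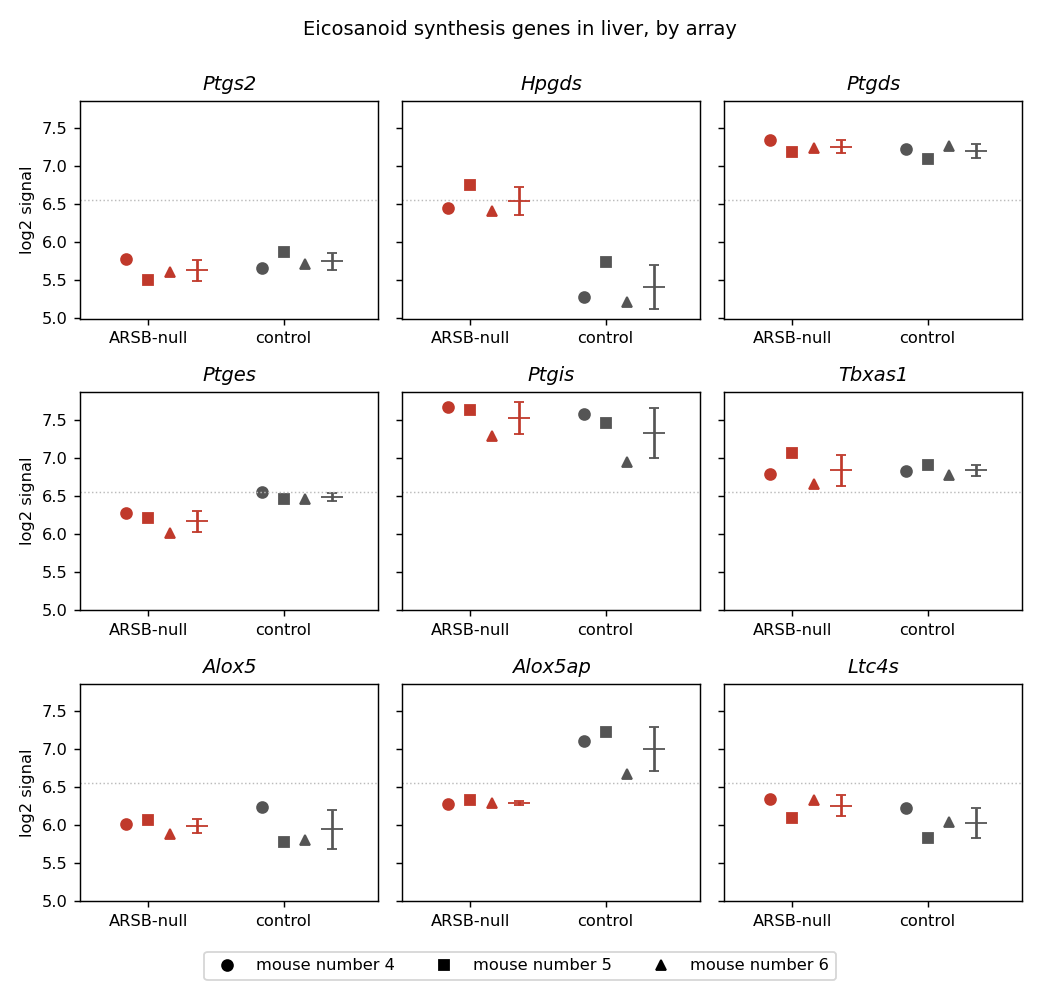
Log2 signal of the 9 measured members on each array (vertical axis, the same scale in all panels), ARSB-null left of control, with symbols for the mouse numbers 4, 5 and 6, the mean as a horizontal tick and bars of 1 SD (n = 3). The dotted line is the mean of the 6 array medians. The groups separated without overlap for Hpgds (higher in ARSB-null) and for Ptges and Alox5ap (lower in ARSB-null).

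Over the 9 measured members, the mean was higher in ARSB-null livers for 6 and lower for 3, with a median difference of 0.05. The groups did not overlap for 3 of the 9 (33.3%), against 11.9% of all probe sets, and nothing is read from that share. Limma called 0 of the 9 over all probe sets, and so did the test of single genes that the methods name; no p of a member is given. A fit limited to the 21789 probe sets with 1 gene symbol called 0.275% of them and 1 of the 9, Hpgds, and nothing is read from that call, since Hpgds was picked for its difference on these arrays. Over all settings Tbxas1 kept its sign in 14 of 18 and Alox5 in 15 of 17, and no other member changed sign. The Hpgds difference ran from 1.02 to 1.29 over all settings, and that of Ptges from -0.38 to -0.25. Ptgs2, Ltc4s, Ptges and Alox5 lay below the median of their array on all 6 arrays, so that 4 of the 9 were dim throughout.

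The rest of the pathway was covered by 7 lists of 79 genes, of which 72 were measured, and limma called 0 of them in either direction. Their means were higher in ARSB-null livers for 30 and lower for 42, with a median difference of -0.02 against -0.02 over all genes. At an unadjusted p under 0.05, limma gave 3 higher (4.17%, against 2.75% of all probe sets) and 6 lower (8.33%, against 3.19%), and the test of single genes that the methods name gave 8 in all. These counts moved with single arrays. The 9 genes at that level became 6, 5 and 3 without the ARSB-null mouse numbered 4, 5 and 6. They became 12, 2 and 3 without the control numbered 4, 5 and 6, and 13 without both arrays numbered 4. The groups did not overlap for 14 of the 72 (19.4%, against 11.9% of all probe sets), 7 in each direction.

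**Figure D2:**
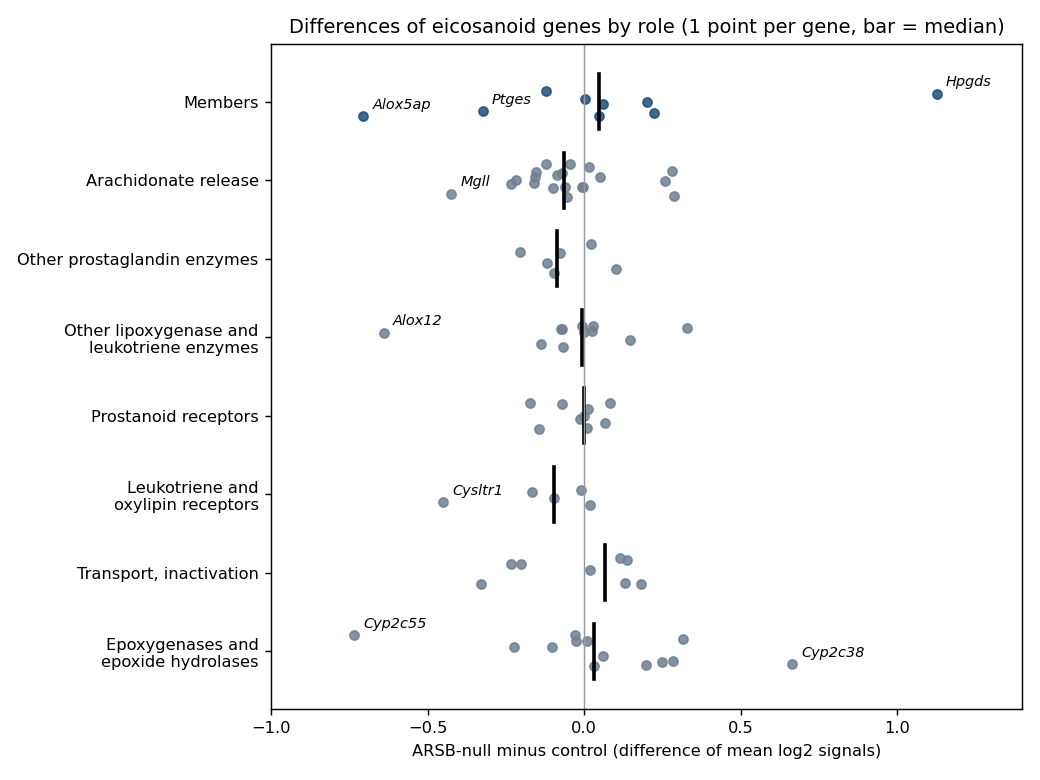
Difference of mean log2 signals, ARSB-null minus control (horizontal axis), with 1 point per gene, for the 9 measured members and the 7 lists of other eicosanoid genes; black bars are list medians. Hpgds at 1.13 lay beyond every other gene shown, and the list medians lay between -0.10 and 0.07.

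Of the genes that release, re-esterify or turn over arachidonate, 15 of the 20 measured had the lower mean in ARSB-null livers, as had 10921 of the 19938 genes measured. The median difference was -0.07, against -0.02 over all genes. The groups did not overlap for 5 of the 20, against 11.9% of all probe sets, 4 of them with the lower mean in ARSB-null livers. Mgll, the monoacylglycerol lipase that yields arachidonate from 2-arachidonoylglycerol, had the smallest p among them. It was 9.68, 9.55 and 9.73 in ARSB-null livers, against 9.94, 10.12 and 10.17 in control livers, a difference of -0.42 (limma adjusted p = 0.563). Daglb, a diacylglycerol lipase that forms 2-arachidonoylglycerol, also had the lower mean in ARSB-null livers (-0.24). Pla2g12a, a secreted phospholipase A2, and Plaat3, a phospholipase of adipose tissue, had higher means there (0.29 and 0.26). None of these passed the adjusted threshold.

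Of the other prostaglandin synthases and reductases, 6 of 8 were measured and none had groups apart. The other 2 enzymes named prostaglandin E synthase, Ptges2 and Ptges3 (the cochaperone p23), differed by -0.20 and -0.12 with overlapping groups. Prxl2b, a prostaglandin F synthase, and Cbr1, a carbonyl reductase that also acts on PGE2, differed by -0.10 and -0.08.

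Of the other lipoxygenase and leukotriene enzymes, Alox12 stood out of 11 measured. It encodes the 12-lipoxygenase of platelets, and was 5.93, 5.76 and 5.80 in ARSB-null livers, against 6.64, 6.56 and 6.21 in control livers. The groups did not overlap, and the difference of -0.64 (limma adjusted p = 0.426) was -0.77 without the control numbered 6. Dpep1, a dipeptidase that processes leukotriene D4, differed by 0.33 with overlapping groups, as did Alox15 by 0.14 and Alox12e by -0.14, the leukocyte and epidermal types of 12-lipoxygenase.

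The receptors were mostly dim. All 9 prostanoid receptors were measured, 7 of them below the array median on every array, and none had groups apart. Ptger4 and Ptger2, receptors for PGE2, differed by -0.17 and -0.07, the PGD2 receptor Ptgdr by -0.14 and the prostacyclin receptor Ptgir by 0.08. Among 5 measured receptors for leukotrienes and other oxylipins, Cysltr1, the first receptor of the cysteinyl leukotrienes, was 5.83, 5.98 and 5.48 in ARSB-null livers, against 6.03, 6.38 and 6.22 in control livers. Those groups did not overlap, with a difference of -0.45 (limma adjusted p = 0.766). Cysltr2, Cmklr1 and Oxgr1 had overlapping groups and differences of -0.17, -0.10 and 0.02.

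Among the 8 genes of eicosanoid transport and inactivation none passed the threshold, and the smallest limma adjusted p was 0.839. The groups did not overlap for 5 of the 8, against 11.9% of all probe sets, 4 of them with the higher mean in ARSB-null livers. Hpgd, the 15-hydroxyprostaglandin dehydrogenase that begins the breakdown of prostaglandins, was 11.77, 11.93 and 11.89 in ARSB-null livers, against 11.71, 11.66 and 11.67 in control livers. The arrays of each group lay close together, and the difference was 0.18 (limma adjusted p = 0.907). Ptgr2, a reductase that takes up the next step, differed by -0.33 (limma adjusted p = 0.839), with the groups apart. Abcc1, an exporter of leukotriene C4, differed by 0.14 and Ptgr1, which inactivates leukotriene B4, by -0.23.

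The epoxygenases form a further branch of arachidonate metabolism in hepatocytes, and 13 of 14 listed genes of this branch were measured. Cyp2c54 and Cyp2c37 had higher means in ARSB-null livers without overlap, by 0.32 and 0.28 (limma adjusted p = 0.759 and 0.814). Cyp2c38 was also higher in the mean, by 0.66, with overlapping groups. Cyp2c55 was 7.77, 8.50 and 8.22 in ARSB-null livers, against 8.39, 9.18 and 9.12 in control livers. It was lower in the ARSB-null mouse within each number, while the groups overlapped, and the difference was -0.73 (limma adjusted p = 0.780). It was called only among probe sets with 1 symbol and with the mouse number as a replicate block, a setting that called 0.486% of those probe sets (limma adjusted p = 0.0250). CYP2C genes of the mouse are close copies of each other and may share probes.

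Markers of blood and resident cells were set beside the members, since these enzymes are known from such cells. The 6 measured platelet markers averaged 6.90 to 7.17 on the ARSB-null and 7.19 to 7.59 on the control arrays. In ARSB-null livers 5 of the 6 had the lower mean, as had 10921 of the 19938 genes measured. Ppbp, a platelet chemokine, was 8.02, 7.79 and 7.53 in ARSB-null livers, against 9.58, 9.63 and 8.72 in control livers, a difference of -1.53 (limma adjusted p = 0.272, and 0.0341 among probe sets with 1 symbol). The adjusted p of Ppbp was under 0.05 only among probe sets with 1 symbol, with or without the replicate block. By one-way analysis of variance it was 0.568, and by limma with single arrays left out 0.122 to 0.786. Gp9, a platelet surface glycoprotein, was 7.07, 6.68 and 6.84 in ARSB-null livers, against 7.66, 7.56 and 7.14 in control livers. Itga2b differed by -0.23 without overlap. The groups of Pf4, Gp5 and Treml1 overlapped, with differences of -0.16, -0.12 and 0.14. The control numbered 6 was the lowest control for 7 of 8 genes compared, namely Alox5ap, Alox12 and 5 platelet markers (all but Treml1). The same mouse had the lowest control mean for 5 of the 10 marker lists, those of platelets, Kupffer cells, monocytes and neutrophils, T and NK cells, and B and plasma cells. Another control was lowest for the lists of hepatocytes, mast cells and basophils, endothelium, stellate cells and bile duct cells. The part of platelet RNA in the Alox5ap and Alox12 values was not tested.

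The 15 markers of Kupffer cells and macrophages did not move as one. Their mean signal was 9.01 to 9.10 on the ARSB-null and 9.01 to 9.30 on the control arrays, with 4 higher and 11 lower in the mean. Cd163 and Folr2, a scavenger receptor and a folate receptor of resident macrophages, differed by -0.77 and -0.75 without overlap (limma adjusted p = 0.355 and 0.272). Clec4f and Timd4, named after their values were seen because they define Kupffer cells, differed by -0.12 and -0.21 with overlapping groups, and neither was below the array median on any array. Cd68, a lysosomal protein of macrophages, differed by 0.53, also without overlap (limma adjusted p = 0.448). The groups did not overlap for 4 of the 15 markers, 2 in each direction, against 11.9% of all probe sets. The 11 markers of monocytes and neutrophils averaged 5.58 to 5.62 on the ARSB-null and 5.63 to 5.87 on the control arrays. In ARSB-null livers 10 of the 11 had the lower mean, as had 10921 of the 19938 genes measured. Of these 11 markers, 9 lay below the array median on all 6 arrays. The part of these cells in the Alox5ap and Hpgds values was not tested.

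Mast cells, basophils and eosinophils are the cells best known for Hpgds, and their 12 markers as a list did not separate the groups. The markers averaged 5.44 to 5.63 on the ARSB-null and 5.42 to 5.64 on the control arrays, and 9 of the 12 lay below the array median on all 6 arrays. Hdc, the enzyme that makes histamine, was the only one with groups apart, at 7.17, 7.12 and 7.26 in ARSB-null livers, against 7.00, 7.05 and 6.85 in control livers (difference 0.22, limma adjusted p = 0.876). Cpa3, a protease of mast cell granules, differed by 0.14 and the chemokine receptor Ccr3 by -0.23, both with overlapping groups. Of the 12 markers, 6 had the higher and 6 the lower mean in ARSB-null livers.

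**Figure D3:**
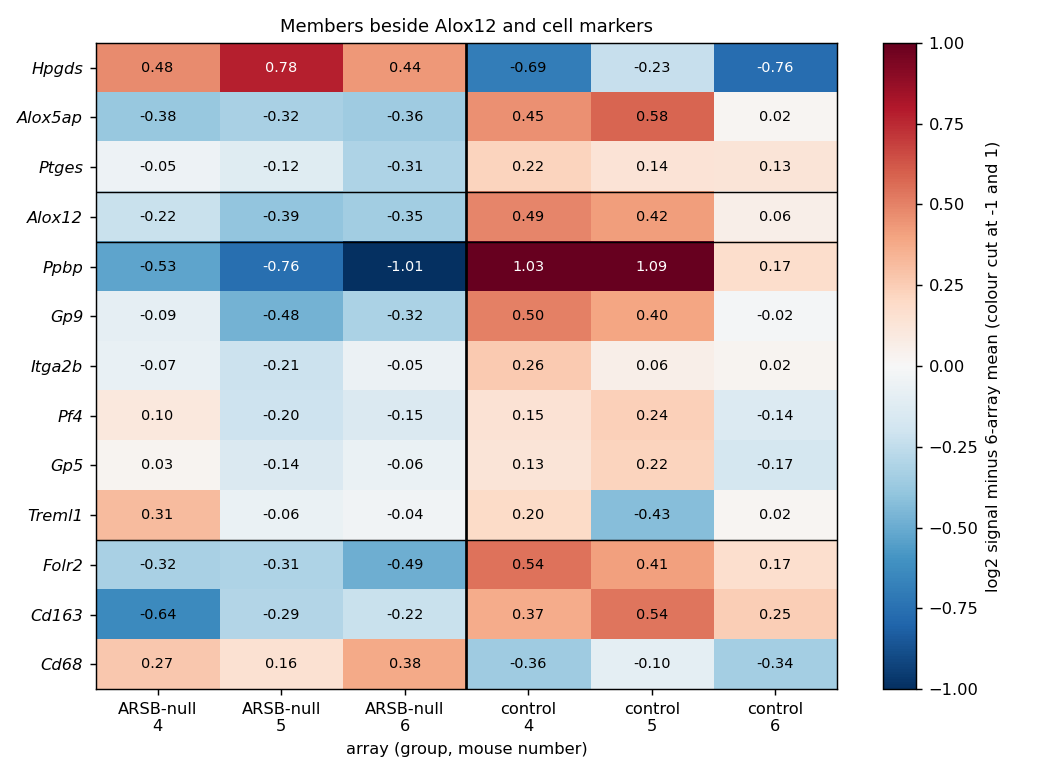
Log2 signal minus the gene's mean over the 6 arrays (colour and printed value), for Hpgds, Alox5ap and Ptges, for Alox12, for 6 platelet markers and for 3 macrophage markers, with the ARSB-null arrays left of the control arrays. Alox5ap, Alox12, Ppbp, Folr2 and Cd163 were lowest among controls in the mouse numbered 6, and Hpgds was higher in ARSB-null arrays where these genes were lower.

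The genes closest to Hpgds were sought by the root mean square difference of their deviations over the 6 arrays, among 17161 genes. The 8 closest were Jchain, Lrtm1, Lilr4b, Gpx6, Gpr137b-ps, Gpr137b, Vcam1 and Adgrf1, at 0.12 to 0.24 log2. Jchain, the joining chain of secreted IgM and IgA, was 6.27, 6.34 and 6.10 in ARSB-null livers, against 4.78, 5.20 and 4.83 in control livers, a difference of 1.30. Jchain lay below the array median on all 6 arrays. Of 6 measured markers of B and plasma cells, 4 (Jchain included) had the higher mean in ARSB-null livers. The other 2, Cd79a and Ms4a1, differed by -0.40 without overlap and by -0.49 with overlap. Vcam1, an adhesion molecule of endothelium and macrophages, differed by 1.47, and the lysosomal membrane protein Gpr137b by 1.18. Gpr137b and its pseudogene Gpr137b-ps are near copies and may share probes. The 8 closest genes were picked for likeness to Hpgds, so their differences carry no test here. None of the other members was near it: 908 genes were closer to Hpgds than Ptgis, the nearest member, and 17063 were closer than Alox5ap, the farthest.

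**Figure D4:**
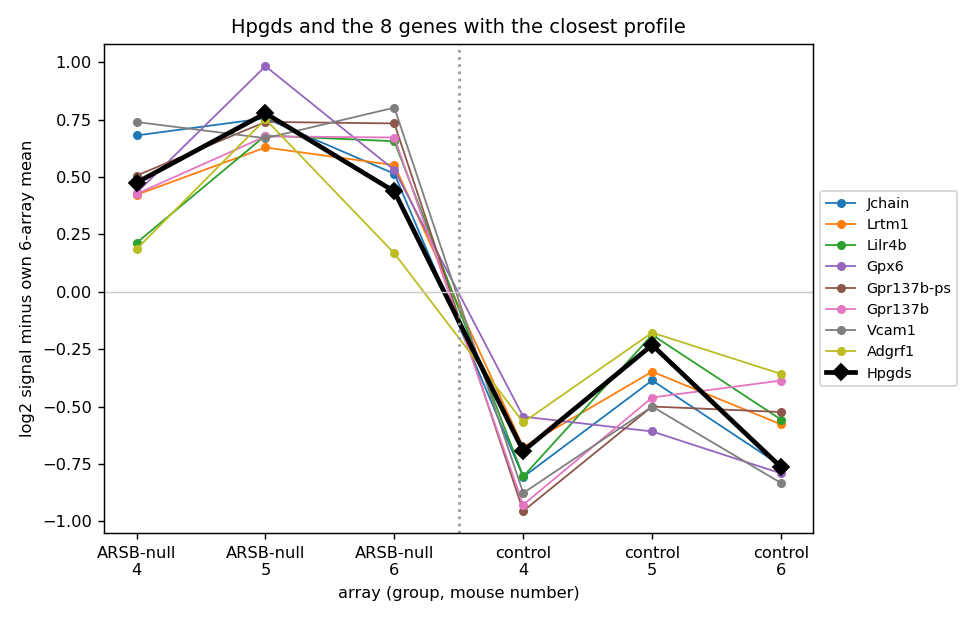
Log2 signal minus the gene's own mean over the 6 arrays (vertical axis), by array, ARSB-null left of control, for Hpgds (black) and the 8 genes with the closest profile; lines join the arrays of a gene for the eye only. All 9 genes lay above their mean on the ARSB-null arrays and below it on the control arrays, and for 6 of the 8 the control numbered 5 was the highest control, as for Hpgds.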

How the data were processed

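Liver RNA of 6 mice was hybridized to 6 arrays. The authors used Partek for quantile normalization and summary (the submitters' processing notes also name RMA, with no versions), and deposited log2 values. Scanner files were not used here. Of 35556 probe sets, 21789 had 1 symbol in GEO's platform annotation, 1621 several and 12146 none, and 680 shared all values with another probe set. Groups came from the sample titles. Limma 3.58.1 (R 4.3.3; lmFit, eBayes, two-sided, Benjamini-Hochberg over all probe sets, 95% intervals) compared the genotypes, at an adjusted p under 0.05. The methods name an analysis of variance per gene, which was run as an alternative. Other alternatives were probe sets with 1 symbol, brighter probe sets, other scalings, array weights, a trended prior, the replicate block and leaving out each array. Simulated data for this comparison covered 35556 probe sets, with noise independent between them. At log2 changes of 0.5, 1, 2 and 3, limma recovered 1, 23, 49 and 50 of 50 changed probe sets, with 4 of 127 calls among unchanged ones. The real data gave only 7 calls. More changed probe sets loosen the Benjamini-Hochberg cutoff, so this recovery is not the sensitivity of the real comparison. Deviations of same-numbered mice from their group means correlated at 0.396, 0.159 and 0.193 for the numbers 4, 5 and 6, all above 0.1. Only for the number 4 was each mouse closest to that of the same number. The ARSB-null mouse numbered 6 and the control numbered 5 correlated at 0.220, above the values within their own numbers. What a shared number stands for is not given in the labels. The members and gene lists were chosen with earlier results of these data known. Genes named were all members, up to 4 genes with the smallest p of each other eicosanoid list, and up to 3 per marker list. The 8 genes closest to Hpgds, without predicted genes, were also named. Clec4f, Timd4, Pf4, Gp5 and Treml1 were named after their values were seen.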

Additional observations from a re-analysis of the deposited data

How the results depend on the processing

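Each setting but 1 changed a single choice (probe sets with 1 symbol were also fitted together with the replicate block), and no member's difference moved by more than the spread between replicates. The counts of called probe sets did move (2 higher and 5 lower over all probe sets). One-way analysis of variance called 1 higher and 1 lower, probe sets with 1 symbol 27 and 33, array weights 14 and 14, and the replicate block 1 and 3. Of the brighter probe sets 5 were called higher and 7 lower, and after median centring 1 and 6. Leaving out 1 array gave 1 higher throughout and 3 to 6 lower. Settings added after the data had been seen gave 1 higher and 0 lower without both arrays numbered 4, and 43 and 63 for probe sets with 1 symbol and the replicate block. Of the members, 1 (Hpgds) was called among probe sets with 1 symbol, with and without the block, which supports nothing about Hpgds, since it was picked on this contrast. Of the other eicosanoid genes 1 (Cyp2c55, lower) was called there with the block. The other eicosanoid genes at an unadjusted p under 0.05 were 9, but 17 with array weights and 14 for probe sets with 1 symbol and the block. Of the members 5 (Hpgds, Ptges, Ptgs2, Alox5 and Ltc4s) fell outside the brighter probe sets and have no value there, nor has Alox12. Taking the mean of a gene's probe sets changed nothing for the members, which have 1 each. Quantile normalization hides changes shared by most genes, and dim signals limit those 5 members.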

Other observations

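Hpgds is by sequence a cytosolic glutathione transferase, and FLAP, leukotriene C4 synthase and microsomal prostaglandin E synthase-1 are relatives of the microsomal ones, so both families were examined. Of 16 measured cytosolic glutathione transferases, 8 had the higher and 8 the lower mean in ARSB-null livers, with a median difference of 0.01. Limma called 0, with 1 gene higher at an unadjusted p under 0.05, against 2.75% of all probe sets. That gene was Gstt2, at 10.09, 9.89 and 10.09 in ARSB-null livers, against 9.53, 9.47 and 9.55 in control livers. Its groups lay apart, with a difference of 0.51 (limma adjusted p = 0.378). The groups did not overlap for 5 of the 16, 4 higher and 1 lower in ARSB-null livers, against 11.9% of all probe sets. Gstm6 and Gstm4 were among these, with differences of 0.24 and -0.14, and Gstm genes are close copies that may share probes. Of the microsomal transferases that are not members, Mgst3 was 8.48, 8.30 and 8.32 in ARSB-null livers, against 7.79, 8.22 and 8.16 in control livers, a difference of 0.31 without overlap (limma adjusted p = 0.859). Mgst1 and Mgst2 differed by -0.03 and -0.01 with overlapping groups.

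Markers of other liver cells were read as well. The 10 markers of sinusoidal and vascular endothelium averaged 9.12 to 9.25 on the ARSB-null and 9.11 to 9.18 on the control arrays. Within them Stab1, a scavenger receptor, differed by 0.49 and Lyve1, a hyaluronan receptor, by -0.31, each without overlap (limma adjusted p = 0.621 and 0.799). The 10 markers of stellate cells and fibroblasts averaged 8.99 to 9.08 on the ARSB-null and 8.85 to 8.91 on the control arrays. Every ARSB-null array thus lay above every control, with a median difference of 0.12. The mean was higher in ARSB-null livers for 9 of the 10, as for 9017 of the 19938 genes measured. The groups did not overlap for 3 of the 10, against 11.9% of all probe sets. Limma called 0, with 1 higher at an unadjusted p under 0.05, against 2.75% of all probe sets. A change in the number of these cells was not tested. Ecm1, an extracellular matrix protein, differed most, by 0.52 (limma adjusted p = 0.535). Of 4 measured markers of bile duct cells, 2 had the higher and 2 the lower mean in ARSB-null livers, with a median difference of -0.05. Among them Sox9 differed by -0.35 without overlap (limma adjusted p = 0.626). Krt7 and Epcam differed by -0.12 and 0.08 with overlapping groups.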
